A study of Papio anubis with 25 samples.

Results

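The levels of 8 transcription factors of salivary and oral epithelium were followed across 5 tissues of the olive baboon (Papio anubis): PITX1, HOPX, SOX10, SOX9, FOXC1, TLX1, ELF5 and EHF. They were taken by gene symbol from the deposited expression table, where all 8 of 8 symbols were found among 21287 genes. All 8 reached a mean of at least 1 TPM in some tissue and so entered the model with 14991 genes in all. TPM is a transcript abundance corrected for length and scaled so that every library has the same total, so each value is relative to all other transcripts in it.

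RNA came from thin sections of flash-frozen parotid, submandibular and sublingual salivary gland, pancreas and liver of 5 animals, 1 library for each tissue of each animal, 25 in all. The animals numbered 1 to 4 were females, the fifth was a male, and their age is not given in the sources used here. The series was designed around amylase genes, and its stated within-animal comparisons set the glands against pancreas, and pancreas against liver. The labels name no allele, treatment or time point, so tissue is the compared factor and the 5 animals are the replicates.

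Salivary glands form when oral epithelium thickens, buds into the underlying mesenchyme and branches, and the buds mature into acini, which secrete saliva, and ducts, which carry and modify it. Basal and myoepithelial cells line both, and the oral mucosa above the sublingual gland stays a stratified epithelium. The transcription factors described here are known from different places in that program: homeodomain proteins of oral and stratified epithelium (PITX1, HOPX), SOX and forkhead factors of bud progenitors and secretory cells (SOX10, SOX9, FOXC1), the homeobox factor TLX1, and the ETS-domain factors of glandular epithelium (ELF5, EHF).

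Sections of the same gland differed in the cell type markers they held, and the part of this in the levels below was not tested. Pancreas and liver matched their labels, with summed pancreatic acinar markers (7 genes) of 66936 to 135850 TPM in pancreas against 120 to 1927 TPM elsewhere, and summed hepatocyte markers (4 genes) of 35022 to 62616 TPM in liver against 117 to 954 TPM elsewhere. Summed salivary secretory markers (8 genes) were at 1474 to 3885 TPM in pancreas and 946 to 4431 TPM in liver. They were at 2047 to 20432 TPM in parotid, 2200 to 70342 TPM in submandibular gland and 1447 to 324988 TPM in sublingual gland. Baboon 2 was lowest in each gland. The source of the salivary transcripts in pancreas and liver was not tested. Several gland libraries stood apart. Parotid of baboon 2 and submandibular gland of baboon 5 were rich in the adipocyte gene ADIPOQ (591 and 397 TPM), as was, less so, submandibular gland of baboon 2 (72.7 TPM). Parotid of baboon 5 held the B-cell gene CD79A at 338 TPM, and sublingual gland of baboon 2 held the skeletal muscle actin ACTA1 at 33485 TPM. Sublingual gland of baboons 1 and 4 held KRT13, a keratin of stratified oral mucosa, at 50365 and 12518 TPM, against 36.4 to 228 TPM in the other 3 sublingual libraries. The 5 epithelial markers EPCAM, CDH1, KRT8, KRT18 and CLDN7 summed to 16.0 to 176 TPM in parotid, 26.9 to 141 TPM in submandibular gland and 10.2 to 417 TPM in sublingual gland, against 174 to 226 TPM in pancreas and 148 to 178 TPM in liver. The simple-epithelium keratins KRT8 and KRT18 were both under 9 TPM in 5 gland libraries: parotid of baboons 2 and 5, submandibular gland of baboon 2, and sublingual gland of baboons 2 and 4. AQP5, the water channel of salivary acini, was at 2.25 to 5.40 TPM in these 5 libraries and at 40.5 to 226 TPM in the other 10 gland libraries, while pancreas and liver held 1.98 to 4.52 TPM. Other salivary secretory genes did not all follow AQP5. In parotid, LPO and BPIFA2 were also lowest in baboons 2 and 5. By contrast, ZG16B, PIP, MUC7 and SLC12A2 were highest there in baboon 5 (2047, 1098, 341 and 1.91 TPM). Pancreas held ZG16B at 142 to 1701, PIP at 333 to 911, MUC7 at 63.0 to 281 and SLC12A2 at 0.538 to 1.05 TPM. In liver the ranges were 157 to 1813, 126 to 1092, 59.8 to 485 and 0.425 to 1.13 TPM in the same order. BPIFA2 was at 507 and 1108 TPM in parotid of baboons 2 and 5. It was at 582 to 1230 TPM in pancreas and 562 to 1414 TPM in liver.

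**Figure D1:**
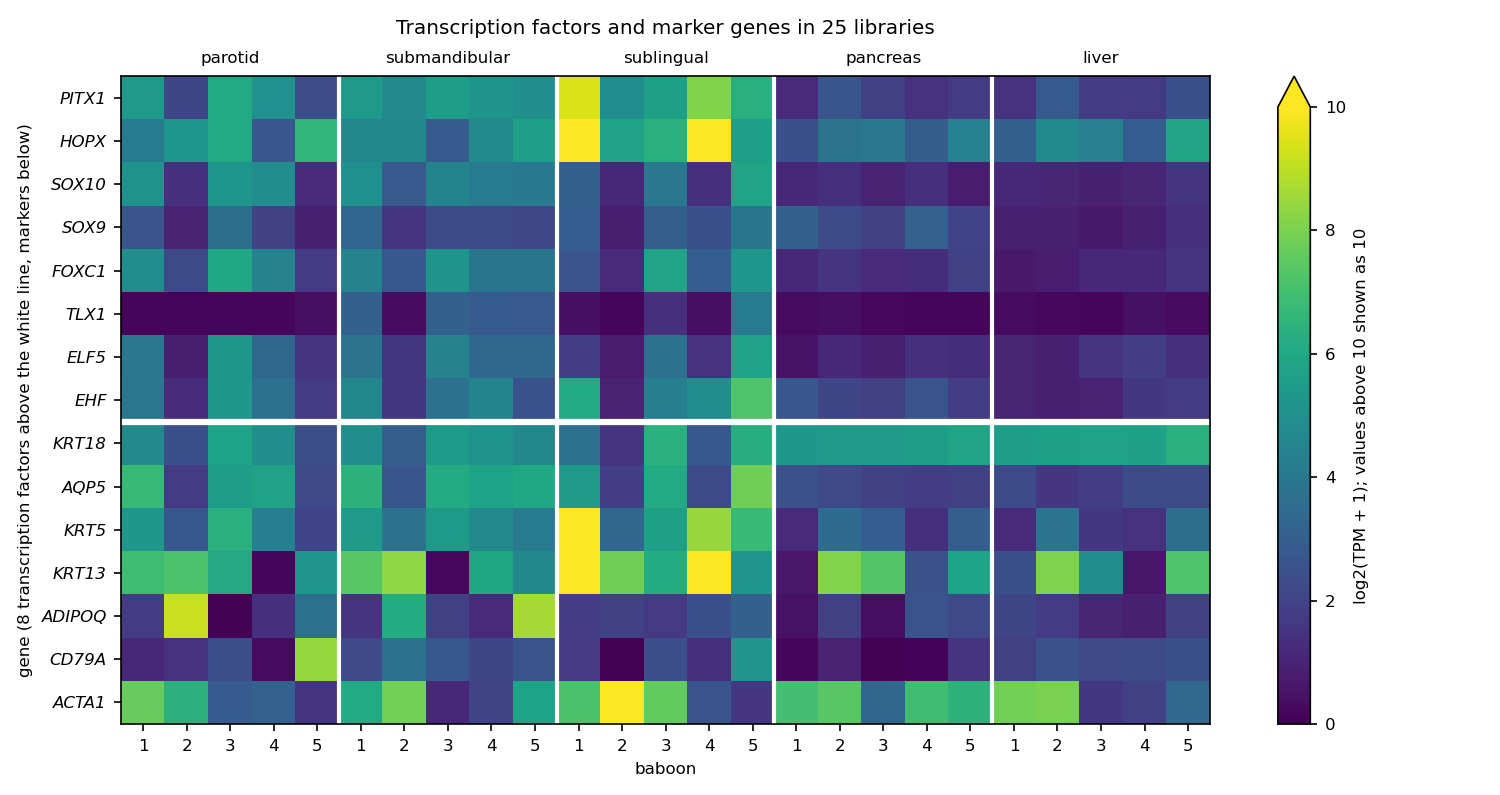
Levels of the 8 transcription factors (upper block) and 7 marker genes (lower block) in 25 libraries, shown by colour as log2(TPM + 1), with libraries ordered by tissue and baboon 1 to 5 and values above 10 drawn as 10. Parotid of baboons 2 and 5 and sublingual gland of baboon 2 are dark for most transcription factors and for KRT18 and AQP5, and sublingual gland of baboons 1 and 4 is bright for HOPX, PITX1, KRT5 and KRT13.

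Compared with pancreas and liver, members were called higher in each salivary gland, and no member was called lower in a gland than in either organ. Among all genes tested, 2.40% were called lower than in pancreas in parotid, 2.81% in submandibular and 2.49% in sublingual gland, and 10.9%, 13.9% and 9.52% lower than in liver. A gene was called when its adjusted p from limma (Benjamini-Hochberg over all genes) was under 0.05 and its log2 fold change, on the log2(TPM + 1) scale, was at least 1 in size. Against pancreas, 1 of 8 members was called higher in parotid (FOXC1), where 1.41% of all genes tested were called higher. In submandibular gland 4 of 8 were called higher than in pancreas (PITX1, SOX10, TLX1, FOXC1), where the background was 1.27%. In sublingual gland 4 of 8 were called higher than in pancreas (PITX1, FOXC1, EHF, HOPX), beside a larger background of 6.97%. Because these are pieces of whole tissue, fewer cells of a type and less RNA per cell cannot be told apart in any of the differences.

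Against liver, 2 of 8 members were called higher in parotid (SOX10, FOXC1), where 2.84% of all genes were called higher. Submandibular gland had 6 of 8 called higher than liver (all but ELF5 and HOPX), with a background of 2.61%. Sublingual gland had 5 of 8 called higher than liver (PITX1, SOX9, FOXC1, EHF, HOPX), with a background of 5.93%. FOXC1 was the member called in all 6 of these comparisons. Against pancreas the members' median log2 fold change was 1.68 for parotid, 2.24 for submandibular and 2.06 for sublingual gland, where the medians of all genes tested were 0.45, 0.17 and 0.63. Against liver it was 1.78, 2.15 and 2.24, where the medians of all genes were 0.01, -0.27 and 0.17. TMM scaling of the libraries brought the medians of all genes in these 6 comparisons to between 0.02 and 0.11.

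The counts depended on which sections entered. Without the 4 libraries low in KRT8 and KRT18 that were not also rich in KRT13 (parotid of baboons 2 and 5, submandibular and sublingual gland of baboon 2), a set chosen with the data in view, 4 members were called higher in parotid than in pancreas (PITX1, SOX10, FOXC1, ELF5) and 6 higher than in liver, with backgrounds of 2.05% and 3.46%. In submandibular gland the counts were then 5 against pancreas and 7 against liver, with backgrounds of 2.69% and 4.07%. In sublingual gland they were 7 and 8, but there 30.9% and 16.4% of all genes were called higher. Over the 15 gland libraries the Pearson r of log2(TPM + 1) between KRT18 and a member was highest for FOXC1 (0.955), ELF5 (0.930) and SOX10 (0.909), was 0.27 for PITX1 and was lowest for HOPX (-0.33). Leaving out libraries low in KRT18 thus also left out libraries low in some of the members. Without the 2 KRT13-rich sublingual libraries instead, 2 members were called higher in sublingual gland than in pancreas (PITX1 and FOXC1, background 1.82%) and 6 higher than in liver (all but ELF5 and HOPX, background 3.14%).

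**Figure D2:**
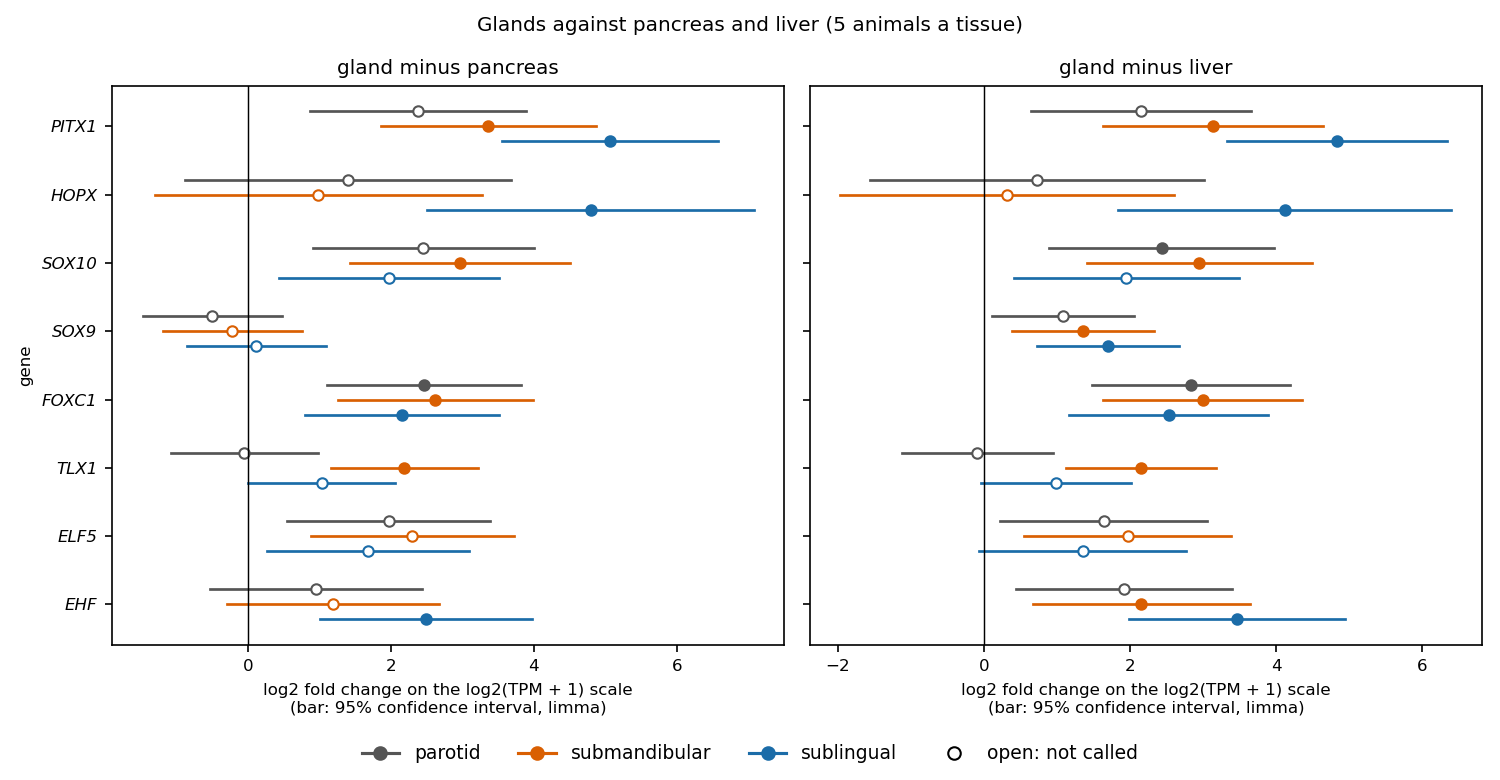
Log2 fold change of each transcription factor in each gland against pancreas (left) and liver (right), on the log2(TPM + 1) scale, with 95% confidence intervals from limma over 5 animals and filled points for called genes. FOXC1 is filled in all 3 glands on both sides, PITX1 and HOPX lie farthest right in sublingual gland at 5.07 and 4.79 against pancreas, SOX9 lies near 0 against pancreas, and TLX1 lies near 0 in parotid.

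With all libraries no member was called between glands, and 1 member was called between the 2 digestive organs. Between submandibular gland and parotid 0 of 8 members were called, and 0% of all genes were called higher in submandibular gland. Between sublingual gland and parotid 0 members were called and 0.0934% of all genes were called higher in sublingual gland. Between sublingual and submandibular gland 0 members were called and 0.0467% of all genes were called higher in sublingual gland. At an unadjusted p under 0.05 the limma model listed 1 member between submandibular gland and parotid (TLX1), beside 254 of all 14991 genes. Between sublingual gland and parotid it listed 4 members (PITX1, TLX1, EHF, HOPX), beside 1368 of all genes. Between sublingual and submandibular gland it listed 3 (PITX1, TLX1, HOPX), beside 2109 of all genes. The model without the animal term called 0 members in each of the 3 comparisons. Without the 4 libraries low in KRT8 and KRT18, sublingual gland had 2 members called higher (PITX1, HOPX) and 1 lower (SOX10) than parotid, and 3 higher (PITX1, EHF, HOPX) and 1 lower (TLX1) than submandibular gland, where 34.2% and 34.4% of all genes were called higher. The libraries left out held the lowest SOX10 of parotid and the lowest TLX1 of submandibular gland, so these lower calls depend on that choice. The share of all genes called lower in that set was not counted, so the lower calls have no background beside them. Between pancreas and liver SOX9 was called higher in pancreas, beside 2.86% of all genes.

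PITX1 is a paired-like homeodomain factor of the oral epithelium from early development, also known for hindlimb and pituitary. It was present in nearly all gland sections and was highest in sublingual gland. In sublingual gland of baboons 1 to 5 it measured 710, 28.4, 49.9, 271 and 75.3 TPM (227 ± 287, SD, n = 5). Submandibular gland gave 40.8, 25.4, 45.8, 35.5 and 30.9 TPM (35.7 ± 8.0, SD, n = 5), the narrowest relative spread of any member in a gland. Parotid gave 40.8, 3.24, 66.0, 32.2 and 4.08 TPM (29.3 ± 26.5, SD, n = 5). Every sublingual and submandibular value lay above every value of pancreas and liver, while parotid of baboons 2 and 5 fell within their range. Pancreas held 1.35, 5.34, 2.92, 1.67 and 2.34 TPM, and liver held 1.74, 6.06, 2.36, 2.26 and 4.50 TPM.

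PITX1 was higher in sublingual gland than in pancreas, with a log2 fold change of 5.07 ± 0.73 (SE, adjusted p 4.98e-05 by limma, higher in 5 of 5 animals) and than in liver by 4.84 (adjusted p 2.35e-05, 5 of 5). Submandibular gland was higher than pancreas by 3.36 (adjusted p 0.00574, 5 of 5) and than liver by 3.13 (adjusted p 0.00320, 5 of 5). Parotid showed 2.38 against pancreas (adjusted p 0.0729, 4 of 5) and 2.15 against liver (adjusted p 0.0502, 3 of 5), which missed the threshold. Of 15 alternatives, 6 passed it against pancreas and 10 against liver. The order of medians was sublingual (75.3 TPM), submandibular (35.5 TPM), parotid (32.2 TPM), liver (2.36 TPM) and pancreas (2.34 TPM), and neighbours in that order did not pass the test. The gap between sublingual and submandibular gland was 1.70 (adjusted p 0.316, 5 of 5 animals) and that between sublingual gland and parotid was 2.69 (adjusted p 0.143, 4 of 5).

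Sublingual gland of baboons 1 and 4, with the most PITX1, were the KRT13-rich sections, and they also held the most KRT5, the basal-cell keratin (1565 and 350 TPM, against 8.97 to 108 TPM in the other 3). Without these 2 libraries PITX1 stayed called in sublingual gland, at 3.83 against pancreas (adjusted p 0.00248) and 3.60 against liver (adjusted p 0.00118), while its difference from submandibular gland was 0.47 (adjusted p 0.999). Without the 4 low-KRT8 libraries PITX1 was also called in parotid, at 3.85 against pancreas (adjusted p 0.000527) and 3.62 against liver (adjusted p 0.000240). The parotid libraries left out, at 3.24 and 4.08 TPM, were the lowest in PITX1 of that gland. The submandibular call against pancreas was lost without baboon 4 (3.26, adjusted p 0.0534).

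HOPX encodes a small homeodomain protein that does not itself bind DNA and is known from heart development and from differentiating stratified epithelium. Among the 8 members it had the highest level and the widest range. Sublingual gland of baboons 1 to 5 held 2810, 52.5, 80.4, 5616 and 49.0 TPM (1722 ± 2481, SD, n = 5). Parotid held 16.2, 36.8, 67.2, 5.48 and 93.2 TPM (43.8 ± 36.3, SD, n = 5). Submandibular gland held 24.4, 23.9, 6.60, 25.7 and 49.2 TPM (26.0 ± 15.2, SD, n = 5). Apart from sublingual gland of baboons 1 and 4, no tissue stood clear of the others. Pancreas gave 4.41, 13.4, 15.1, 6.83 and 20.4 TPM, and liver gave 7.49, 26.4, 19.7, 6.91 and 56.3 TPM, so the values of parotid and submandibular gland overlapped both organs.

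The called HOPX differences rested on those 2 sublingual sections. HOPX was higher in sublingual gland than in pancreas, with a log2 fold change of 4.79 ± 1.10 (SE, adjusted p 0.00834 by limma, 5 of 5 animals) and than in liver by 4.12 (adjusted p 0.0108, 4 of 5). Without sublingual gland of baboons 1 and 4 the values were 1.81 (adjusted p 0.132) and 1.14 (adjusted p 0.291), neither called. Leaving out all tissues of baboon 1 gave 3.74 against pancreas (adjusted p 0.105) and leaving out baboon 4 gave 3.62 (adjusted p 0.0562). Against liver the same omissions gave 3.05 (adjusted p 0.120) and 2.78 (adjusted p 0.0997). Fitted with only the tissues compared, neither difference passed (adjusted p 0.0535 and 0.0966).

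Parotid showed 1.40 against pancreas (adjusted p 0.457) and 0.73 against liver (adjusted p 0.743), and submandibular gland showed 0.99 (adjusted p 0.854) and 0.31 (adjusted p 0.914), none of them past the threshold. Medians ran from sublingual gland (80.4 TPM) through parotid (36.8 TPM), submandibular gland (24.4 TPM) and liver (19.7 TPM) to pancreas (13.4 TPM), and no neighbours passed the test. Sublingual gland exceeded parotid by 3.39 (adjusted p 0.253) and submandibular gland by 3.81 (adjusted p 0.187). In liver, KRT13 was at 4.49, 266, 30.5, 0.532 and 152 TPM in baboons 1 to 5, and the 2 livers lowest in it (baboons 1 and 4) were the 2 lowest in HOPX, while KRT13 was highest in baboon 2 and HOPX in baboon 5. In pancreas too, baboons 1 and 4 were lowest in both genes (KRT13 at 0.594 and 4.65 TPM). Baboon 4 in parotid and baboon 3 in submandibular gland were lowest in both (KRT13 at 0.128 and 0.175 TPM). In these 3 tissues as well, KRT13 was highest in baboon 2 and HOPX in baboon 5. The 11 stratified mucosa markers measured summed to 175 to 126156 TPM in sublingual gland, 9.45 to 417 TPM in parotid, 13.3 to 919.7 TPM in submandibular gland, 9.63 to 727 TPM in pancreas and 9.89 to 710.0 TPM in liver, and their part in the HOPX values was not tested.

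**Figure D3:**
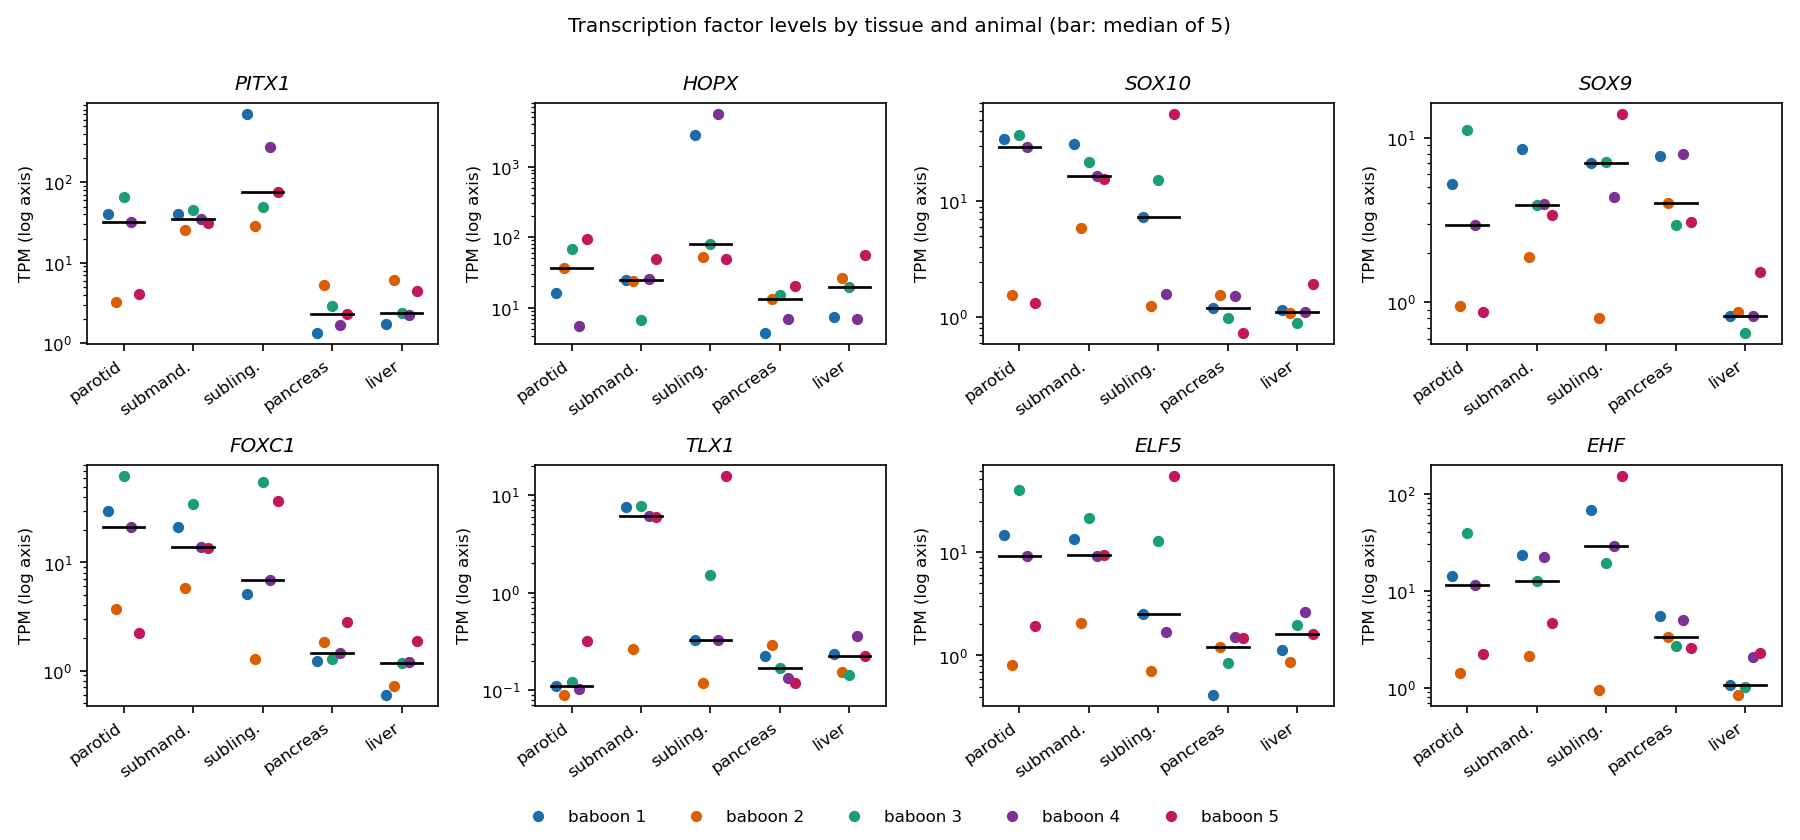
TPM of each transcription factor on a log axis in 5 tissues, 1 point for each baboon by colour, with bars at the median of 5. HOPX in sublingual gland splits into points at 2810 and 5616 TPM and 3 at 49.0 to 80.4 TPM, TLX1 has 4 of 5 submandibular points at 6.01 to 7.71 TPM and all parotid points at or under 0.319 TPM, and baboon 2 has the lowest submandibular and sublingual point for SOX10, SOX9, FOXC1, TLX1, ELF5 and EHF.

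SOX10 is a high-mobility-group factor of neural crest and Schwann cells that in salivary gland marks acinar progenitors and secretory and myoepithelial cells. It was above every pancreas and liver value in 11 of 15 gland libraries. Parotid held 34.5, 1.55, 37.3, 29.1 and 1.33 TPM (20.8 ± 17.9, SD, n = 5). Submandibular gland held 31.2, 5.85, 21.6, 16.5 and 15.5 TPM (18.1 ± 9.27, SD, n = 5). Sublingual gland held 7.38, 1.24, 15.2, 1.58 and 56.8 TPM (16.4 ± 23.2, SD, n = 5). Parotid split into 3 high and 2 low sections, and sublingual gland spread from the level of liver to the highest value in the set. Pancreas ranged from 0.735 to 1.56 TPM and liver from 0.896 to 1.94 TPM, below every submandibular value.

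SOX10 was higher in submandibular gland than in pancreas by 2.97 ± 0.74 in log2 units (SE, adjusted p 0.0200 by limma, 5 of 5 animals) and than in liver by 2.95 (adjusted p 0.00640, 5 of 5). In parotid it was higher than in liver by 2.43 (adjusted p 0.0282, 4 of 5), and the difference of 2.45 from pancreas missed the threshold (adjusted p 0.0692, 4 of 5). Sublingual gland showed 1.97 against pancreas (adjusted p 0.0864, 4 of 5) and 1.95 against liver (adjusted p 0.0798, 5 of 5). Over 15 alternatives the parotid difference from pancreas passed the threshold in 7. The sublingual ones passed it in 3 against pancreas and 4 against liver. By median the order was parotid (29.1 TPM), submandibular (16.5 TPM), sublingual (7.38 TPM), pancreas (1.20 TPM) and liver (1.12 TPM), with no call between neighbours.

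Without the 4 low-KRT8 libraries the parotid difference from pancreas grew to 4.17 (adjusted p 0.000128) and the sublingual one was called at 2.47 (adjusted p 0.00239). In that same set SOX10 was lower in sublingual gland than in parotid, with a log2 fold change of -1.70 (adjusted p 0.0352), where 34.2% of all genes were called higher in sublingual gland. The share of all genes called lower there was not counted. With all libraries the difference was -0.48 (limma adjusted p 0.898). The set left out the 2 parotid libraries lowest in SOX10 (1.55 and 1.33 TPM) but kept sublingual gland of baboon 4 (1.58 TPM). That choice raised the parotid values, so the set cannot decide the difference. The parotid call against liver was lost without baboon 1, 3 or 4 (adjusted p 0.169, 0.222 and 0.133) and without a filter on low values (0.0557). The submandibular call against pancreas was lost without the same animals (adjusted p 0.141, 0.133 and 0.0684) and the call against liver without baboon 1 (adjusted p 0.0528).

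Since SOX10 also defines Schwann cells, the markers of that cell type were set beside it. The 5 Schwann markers used summed to 20.9, 1274, 49.1, 7.85 and 106 TPM in parotid of baboons 1 to 5 and to 400.3, 50.9, 68.6, 48.1 and 101 TPM in sublingual gland. The parotid section with the highest sum, that of baboon 2, held 1.55 TPM of SOX10, and the one with the lowest sum, that of baboon 4, held 29.1 TPM. In parotid of baboon 2, the ADIPOQ-rich section, S100B (729 TPM) and PMP22 (510 TPM) made up most of the sum, and S100B was also high in the ADIPOQ-rich submandibular section of baboon 5 (596 TPM). The source of these transcripts was not tested. In submandibular gland the sums ranged from 14.8 to 678 TPM, in pancreas from 24.9 to 38.0 TPM and in liver from 10.5 to 25.5 TPM. Across 25 libraries, which share tissues and animals, the Pearson r of SOX10 with AQP5 was 0.967 on the log2(TPM + 1) scale.

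**Figure D4:**
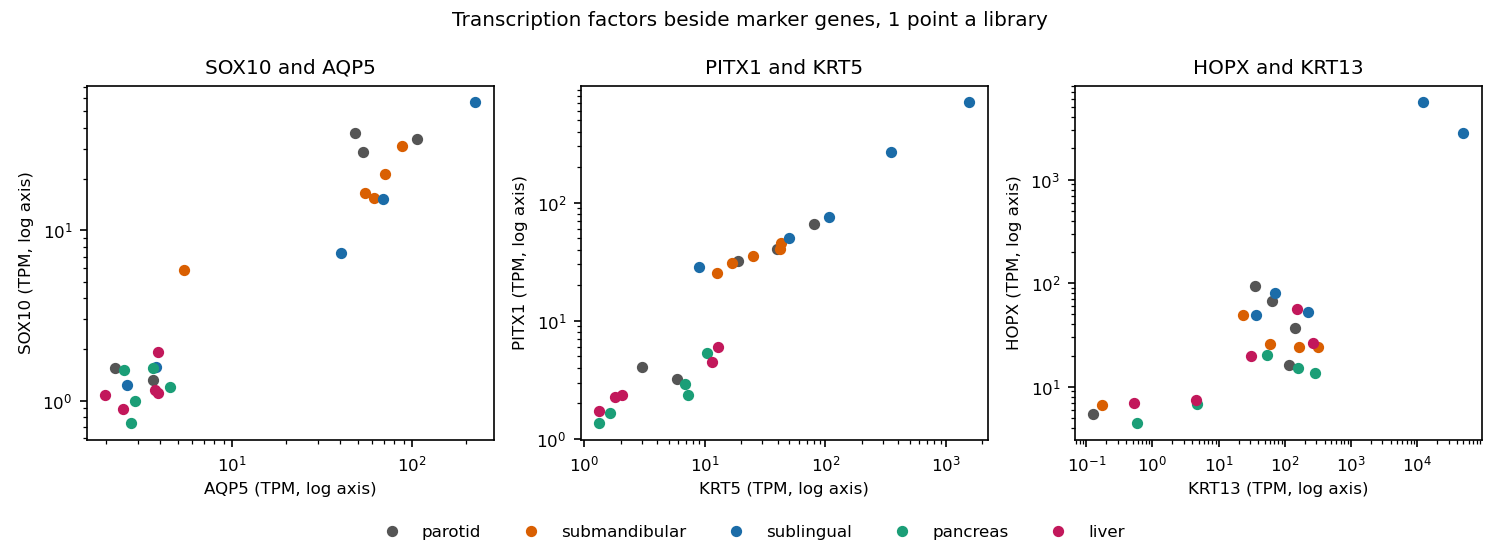
SOX10 against AQP5, PITX1 against KRT5, and HOPX against KRT13, in TPM on log axes, 1 point for each of 25 libraries coloured by tissue. SOX10 rises with AQP5, PITX1 rises with KRT5 up to the 2 mucosa-rich sublingual libraries, and HOPX stands highest in those same 2 libraries. Pancreas and liver hold 1.33 to 12.9 TPM of KRT5 and 1.35 to 6.06 TPM of PITX1.

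SOX9, a relative of SOX10 known from bud-tip progenitors of salivary gland and from pancreatic ducts, was at similar levels in glands and pancreas and lowest in liver. Sublingual gland held 6.97, 0.800, 7.11, 4.37 and 14.0 TPM (6.64 ± 4.83, SD, n = 5). Pancreas held 7.72, 3.98, 2.94, 7.93 and 3.08 TPM (5.13 ± 2.49, SD, n = 5). Liver held 0.820, 0.876, 0.652, 0.821 and 1.54 TPM (0.941 ± 0.343, SD, n = 5). All 5 pancreas values exceeded all 5 liver values. Submandibular gland, at 8.52, 1.88, 3.91, 3.95 and 3.37 TPM, was also clear of liver, whereas parotid, at 5.21, 0.948, 11.2, 2.96 and 0.876 TPM, overlapped it in baboons 2 and 5 and sublingual gland in baboon 2.

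SOX9 was higher in pancreas than in liver by 1.58 ± 0.47 in log2 units (SE, adjusted p 0.0192 by limma, 5 of 5 animals). It was higher than in liver by 1.36 in submandibular gland (adjusted p 0.0486, 5 of 5) and by 1.70 in sublingual gland (adjusted p 0.0136, 4 of 5), and parotid showed 1.08 (adjusted p 0.145, 4 of 5). The parotid difference from liver passed the threshold under 5 of 15 alternatives. Against pancreas parotid differed by -0.50 (95% interval -1.47 to 0.47, adjusted p 0.528), submandibular gland by -0.22 (-1.19 to 0.75, adjusted p 0.940) and sublingual gland by 0.12 (-0.86 to 1.09, adjusted p 0.870). The sublingual value turned to -0.57 under TMM scaling and the parotid value to 0.22 without the 4 low-KRT8 libraries, none of them called. Medians ran from sublingual gland (6.97 TPM) through pancreas (3.98 TPM), submandibular gland (3.91 TPM) and parotid (2.96 TPM) to liver (0.821 TPM).

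The pancreas call was lost without baboon 1 or 4 (adjusted p 0.122 and 0.128), the 2 animals with the most SOX9 in pancreas. The submandibular call against liver was also lost without the replicate block (adjusted p 0.0754), without a filter (0.0675) and without the 2 KRT13-rich sublingual libraries (0.0514). Without baboon 1, 3 or 4 the submandibular call against liver (adjusted p 0.283, 0.129 and 0.168) and the sublingual one (adjusted p 0.0868, 0.0617 and 0.0590) were lost. CFTR, the chloride channel of pancreatic duct cells, was at 2.37 to 6.17 TPM in pancreas and 0.104 to 0.337 TPM in liver. KRT19, a keratin of ducts, was at 15.9 to 21.2 TPM in pancreas and 2.62 to 46.9 TPM in liver.

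FOXC1, a forkhead factor known from eye and other craniofacial development, was the member called in all 3 glands against both organs. Parotid held 30.1, 3.73, 63.4, 21.5 and 2.25 TPM (24.2 ± 24.9, SD, n = 5). Submandibular gland held 21.2, 5.83, 35.1, 14.0 and 13.7 TPM (17.9 ± 11.0, SD, n = 5). Sublingual gland held 5.14, 1.29, 55.9, 6.86 and 37.1 TPM (21.3 ± 24.1, SD, n = 5). Baboon 3 had the highest FOXC1 of its gland in all 3 glands, and 13 of 15 gland values lay above every pancreas and liver value, with parotid of baboon 5 and sublingual gland of baboon 2 as the exceptions. Pancreas gave 1.23, 1.83, 1.29, 1.47 and 2.84 TPM, and liver gave 0.596, 0.720, 1.16, 1.19 and 1.89 TPM.

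Against liver, FOXC1 was higher by 2.83 in parotid (SE 0.66, limma adjusted p 0.00345, 5 of 5 animals), by 2.99 in submandibular gland (adjusted p 0.00187, 5 of 5) and by 2.53 in sublingual gland (adjusted p 0.00869, 5 of 5). Against pancreas it was higher by 2.46 in parotid (adjusted p 0.0323, 4 of 5), by 2.62 in submandibular gland (adjusted p 0.0200, 5 of 5) and by 2.16 in sublingual gland (adjusted p 0.0416, 4 of 5). Median levels fell from parotid (21.5 TPM) through submandibular gland (14.0 TPM), sublingual gland (6.86 TPM) and pancreas (1.47 TPM) to liver (1.16 TPM), with neighbours among the glands not differing by the test. Without the replicate block the calls against pancreas ended in parotid (adjusted p 0.0732) and sublingual gland (0.0719), and without a filter on low values likewise (0.0610 and 0.0695). All 3 ended under TMM scaling, with an adjusted p of 0.0898 for parotid, 0.0506 for submandibular and 0.229 for sublingual gland. Each of the 3 was also lost without baboon 1, 3 or 4 (adjusted p between 0.112 and 0.299), the sublingual one without baboon 5 as well (adjusted p 0.0777), and without baboon 3 the sublingual call against liver was lost (adjusted p 0.0854).

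TLX1, a homeobox factor required for spleen formation in mouse, was present in most submandibular sections and nearly absent from parotid. Submandibular gland held 7.54, 0.266, 7.71, 6.04 and 6.01 TPM (5.51 ± 3.04, SD, n = 5). Parotid held 0.111, 0.0899, 0.122, 0.103 and 0.319 TPM (0.149 ± 0.0956, SD, n = 5). Sublingual gland held 0.327, 0.119, 1.53, 0.326 and 15.7 TPM (3.61 ± 6.80, SD, n = 5). In submandibular gland 4 of 5 sections held 6.01 to 7.71 TPM and baboon 2 alone was low, and in sublingual gland baboons 3 and 5 alone exceeded 1 TPM. Pancreas, at 0.119 to 0.293 TPM, and liver, at 0.142 to 0.364 TPM, were as low as parotid.

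TLX1 was higher in submandibular gland than in pancreas by 2.19 ± 0.50 in log2 units (SE, adjusted p 0.00891 by limma, 4 of 5 animals) and than in liver by 2.15 (adjusted p 0.00313, 5 of 5). Its differences in parotid were -0.05 against pancreas (95% interval -1.08 to 0.98, adjusted p 0.966) and -0.09 against liver (-1.12 to 0.94, adjusted p 0.945). Sublingual gland showed 1.03 against pancreas (adjusted p 0.161) and 0.99 against liver (adjusted p 0.201). Submandibular gland exceeded parotid by 2.24 in 5 of 5 animals but without passing adjustment over all genes (adjusted p 0.356), and sublingual gland showed 1.08 against parotid (adjusted p 0.521) and -1.16 against submandibular gland (adjusted p 0.318).

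Without baboon 2, whose submandibular section was low in KRT8 and KRT18, the TLX1 difference between submandibular gland and parotid was called at 2.75 (adjusted p 0.0421). Without the 4 low-KRT8 libraries it was 2.62 (adjusted p 0.0739), and the submandibular values were 2.72 against pancreas (adjusted p 0.000817) and 2.68 against liver (adjusted p 0.000258). In that set, which leaves out the submandibular section lowest in TLX1, TLX1 was lower in sublingual than in submandibular gland (-1.40, adjusted p 0.0266). How many of all genes were called lower there was not counted. The submandibular call against pancreas was lost without baboon 1, 3 or 4 (adjusted p 0.0806, 0.114 and 0.0806). Medians ran from submandibular gland (6.04 TPM) through sublingual gland (0.327 TPM), liver (0.224 TPM) and pancreas (0.171 TPM) to parotid (0.111 TPM), and at these low levels the added 1 TPM shrinks fold changes.

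ELF5 and EHF are ETS-domain factors of glandular and other epithelia, ELF5 being known as a regulator of mammary alveolar cells. They are direct neighbours on chromosome 12 of the Panubis1.0 assembly as RefSeq annotates it, with 0 genes between them. Parotid held ELF5 at 14.4, 0.805, 39.1, 9.12 and 1.91 TPM (13.1 ± 15.6, SD, n = 5). Submandibular gland held it at 13.4, 2.04, 21.3, 9.17 and 9.33 TPM (11.1 ± 7.05, SD, n = 5). Sublingual gland held it at 2.49, 0.707, 12.7, 1.69 and 53.9 TPM (14.3 ± 22.7, SD, n = 5). The 2 parotid sections low in ELF5, those of baboons 2 and 5, were also low in SOX10, and all 3 glands overlapped pancreas (0.417 to 1.52 TPM) or liver (0.875 to 2.65 TPM) through their lowest sections.

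No ELF5 difference was called. Against pancreas limma gave 1.97 in parotid (SE 0.69, adjusted p 0.126, 4 of 5 animals), 2.30 in submandibular gland (adjusted p 0.0629, 5 of 5) and 1.68 in sublingual gland (adjusted p 0.107, 4 of 5). Against liver it gave 1.64 (adjusted p 0.126, 4 of 5), 1.97 (adjusted p 0.0505, 5 of 5) and 1.35 (adjusted p 0.204, 3 of 5). Without the 4 low-KRT8 libraries ELF5 was called in all 6, for example at 3.33 in parotid against pancreas (adjusted p 0.00246) and 2.36 in submandibular gland against liver (adjusted p 0.00410). The libraries left out were also those lowest in ELF5 of their glands. Over 15 alternatives, ELF5 in submandibular gland passed the threshold in 10 against liver and in 7 against pancreas. Those against liver included TMM and median-of-ratios scaling. In parotid it passed in 4 against each organ, and in sublingual gland in 3 against pancreas and 2 against liver. The order of medians was submandibular (9.33 TPM), parotid (9.12 TPM), sublingual (2.49 TPM), liver (1.60 TPM) and pancreas (1.22 TPM).

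EHF had a different order from its neighbour, with sublingual gland first and pancreas above liver. Sublingual gland held EHF at 68.2, 0.949, 19.1, 28.7 and 153 TPM (54.0 ± 60.5, SD, n = 5). Submandibular gland held it at 23.3, 2.10, 12.7, 22.1 and 4.68 TPM (13.0 ± 9.72, SD, n = 5). Parotid held it at 14.2, 1.40, 38.9, 11.5 and 2.23 TPM (13.6 ± 15.2, SD, n = 5). Unlike ELF5, EHF was high in the 2 KRT13-rich sublingual sections, while the muscle-rich section of baboon 2 was as low as liver. Pancreas gave 5.52, 3.30, 2.67, 4.98 and 2.55 TPM, all above the liver values of 1.05, 0.840, 1.02, 2.09 and 2.27 TPM.

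EHF was higher in sublingual gland than in liver by 3.46 ± 0.72 in log2 units (SE, adjusted p 0.00113 by limma, 5 of 5 animals) and than in pancreas by 2.49 (adjusted p 0.0322, 4 of 5). Submandibular gland was higher than liver by 2.16 (adjusted p 0.0399, 5 of 5), and showed 1.19 against pancreas (adjusted p 0.584). Parotid showed 0.95 against pancreas (adjusted p 0.440) and 1.92 against liver (adjusted p 0.0803). Of 15 alternatives, 0 passed the threshold for parotid against pancreas and 8 against liver. The sublingual call against pancreas was lost without any one of baboons 1, 3, 4 or 5 (adjusted p between 0.0949 and 0.169) and without the 2 KRT13-rich libraries (2.35, adjusted p 0.152), whereas the call against liver remained without them (3.31, adjusted p 0.0104). The submandibular call against liver was lost without baboon 1, 3 or 4 (adjusted p 0.226, 0.138 and 0.194), without the replicate block (0.0885) and without a filter (0.0692). The sublingual call against pancreas was lost without the replicate block too (adjusted p 0.0655), without a filter (0.0565), with only the tissues compared (0.0723) and under TMM scaling (0.143). Medians were 28.7 TPM in sublingual gland, 12.7 TPM in submandibular gland, 11.5 TPM in parotid, 3.30 TPM in pancreas and 1.05 TPM in liver.

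The ratio of EHF to ELF5, both in TPM and so corrected for length, also varied by tissue. It was 0.984, 1.74, 0.996, 1.26 and 1.17 in parotid and 1.74, 1.03, 0.594, 2.41 and 0.502 in submandibular gland. In sublingual gland it was 27.4, 1.34, 1.51, 17.0 and 2.83, highest in the 2 KRT13-rich sections. Pancreas gave 13.2, 2.71, 3.17, 3.28 and 1.74 and liver gave 0.940, 0.960, 0.521, 0.788 and 1.42. In all 5 animals the ratio was higher in pancreas than in liver. These ratios were described after the values were seen and carry no test.

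The members were also counted by library. In parotid of baboons 1 to 5, 5, 1, 7, 5 and 1 of the 8 members exceeded their highest value in any pancreas or liver library. The corresponding counts were 7, 3, 6, 6 and 5 in submandibular gland and 5, 1, 7, 4 and 7 in sublingual gland. How many of all genes passed the same ceiling was not counted, so these counts describe the members alone. The single member above that ceiling was FOXC1 in parotid of baboon 2, HOPX in parotid of baboon 5 and PITX1 in sublingual gland of baboon 2. No library had all 8 above it, and each of the 4 libraries with 7 lacked HOPX, TLX1 or SOX9. PITX1 was the most abundant member in 6 of 15 gland libraries, HOPX in 8 and EHF in 1.

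Over all 25 libraries the 3 highest correlations within the group were those among SOX10, FOXC1 and ELF5. Their Pearson r across 25 libraries on the log2(TPM + 1) scale was 0.939 for SOX10 and ELF5, 0.933 for SOX10 and FOXC1, and 0.924 for FOXC1 and ELF5, and over the 15 gland libraries it was 0.933, 0.887 and 0.923. SOX9 and EHF had r = 0.843 over 25 and 0.924 over 15 libraries. PITX1 and HOPX had r = 0.690 over 25 and 0.617 over 15. HOPX and SOX10 showed no shared course over all libraries (r = 0.02) and an opposite one among glands (r = -0.46). The neighbours ELF5 and EHF had r = 0.747 and 0.668, lower than ELF5 had with SOX10. The libraries share animals, tissues and section makeup, so these values describe the set and carry no p.

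Over all genes with a symbol, the 5 most like each member by the same measure over 25 libraries were listed. PITX1 was nearest to KRT5 (r = 0.949), BARX2 (0.927), KRT14 (0.926), TFAP2A (0.920) and CALML3 (0.910). HOPX was nearest to KRT78 (0.950), SPINK5 (0.947), TMPRSS11B (0.944), IL1A (0.941) and SPINK7 (0.939). SOX10 was nearest to AQP5 (0.967), LPO (0.965), SPDEF (0.943), IRX2 (0.940) and ELF5 (0.939). The list for SOX10 thus held another member, and so did that of ELF5: TMPRSS5 (0.957), ETV1 (0.951), TFCP2L1 (0.950), TMEM213 (0.940) and SOX10 (0.939). FOXC1 was nearest to C5H5orf38, MPPED2 and IRX2 (each 0.956), MPO (0.942) and LPO (0.935). TLX1 was nearest to PIP (0.932), MUC19 (0.890), IL19 (0.890), MUC7 (0.889) and ISL2 (0.864). SOX9 was nearest to RAP1GAP (0.935), SLC12A8 (0.899), KIAA1324 (0.898), C1H1orf210 (0.892) and MFSD6L (0.885), and EHF to RBBP8NL (0.930), CLDN4 (0.926), PRSS8 (0.924), EPHB3 (0.921) and TFAP2A (0.916).

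A wider list of 26 transcription factors of oral and glandular epithelium, of which 24 were tested, set the 8 members in context. In parotid 0 of 24 were called higher than in pancreas, beside 1.41% of all genes. At an unadjusted limma p under 0.05 there were 5 of 24 in parotid, beside 2779 of all 14991 genes tested. In submandibular gland 2 were called higher than in pancreas (SPDEF at 2.99 and TFAP2A at 1.83), beside 1.27% of all genes. In sublingual gland 13 of 24 were called higher than in pancreas and 1 lower, beside 6.97% and 2.49% of all genes. The 4 of them farthest from 0 were PAX9 at 3.28 (limma adjusted p 0.0197), BHLHA15, the acinar maturation factor also called MIST1, at -3.12 (adjusted p 0.00387), BARX2 at 3.10 (adjusted p 0.00231) and TFAP2A at 2.99 (adjusted p 0.000548). Against liver 3 were called higher and 1 lower in parotid, 5 and 1 in submandibular gland, and 12 and 1 in sublingual gland, the lower one being FOXA1 each time (-3.72, -2.64 and -2.04). The shares of all genes called higher and lower were 2.84% and 10.9% in parotid, 2.61% and 13.9% in submandibular gland, and 5.93% and 9.52% in sublingual gland. The list's median log2 fold change against pancreas was 0.45, 0.57 and 1.72 in the 3 glands, beside 0.45, 0.17 and 0.63 over all genes.

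Ligands, receptors and inhibitors of gland branching, the upstream side of the program, were also listed. Of 20 listed genes 15 were tested. Against pancreas 0 were called in parotid, 1 was lower in submandibular gland (EDARADD, -1.68) and 1 was higher in sublingual gland (WNT10A, 1.33). Of all genes, 1.41% were called higher and 2.40% lower in parotid, 2.81% lower in submandibular gland and 6.97% higher in sublingual gland. Against liver 3 were lower in parotid, 1 higher and 4 lower in submandibular gland, and 1 higher and 2 lower in sublingual gland. The shares of all genes against liver are those given above for the wider list. FGF10, the mesenchymal ligand of salivary budding, was higher than in liver in submandibular gland (1.36, adjusted p 0.0232) and sublingual gland (1.39, adjusted p 0.0213), at levels of 0.502 to 8.69 and 0.197 to 5.91 TPM against 0 to 0.204 TPM in liver. The receptor gene ERBB3, the ligand gene NRG1 and the hedgehog receptor gene PTCH1 were lower than in liver in parotid (-1.90, -1.42 and -1.25) and submandibular gland (-1.75, -1.20 and -1.51), and the latter 2 also in sublingual gland (-1.02 and -1.13). Between glands 0 of 15 were called. Of all 14991 genes, 0 were called between submandibular gland and parotid, 17 between sublingual gland and parotid, and 10 between sublingual and submandibular gland. Between pancreas and liver 2 were higher and 4 lower in pancreas, led by FGFR1 at 2.18, beside 2.86% and 14.6% of all genes.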

How the data were processed

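Bulk RNA sequencing libraries of 5 tissues from each of 5 baboons were analysed, grouped by the labels' tissue and animal, and none was left out of the fit. The deposited values are TPM per gene, and per the submitters' processing notes the tools included kallisto. Its version, index, genome build and annotation are not given in the sources used here. Each library summed to 999999.5 to 1000000.6 TPM, so a few very abundant genes lower all others, and the 10 most abundant genes took 16.2 to 87.7% of a gland library. TPM keeps no depth, so the precision rests on the spread over animals. All 21287 symbols matched the RefSeq gene table of Panubis1.0, which was used for names and neighbours only.

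Genes that averaged 1 TPM or more in any tissue (14991) were kept, and their log2(TPM + 1) values were fitted with limma 3.58.1 in R 4.3.3, with tissue and animal as terms over all 25 libraries. The Benjamini-Hochberg adjustment ran over all genes within each of 10 comparisons. The animal pairs the tissues, since same-numbered libraries come from the same animal, and the deviations of such pairs from their tissue means had a mean correlation of 0.161 (range -0.22 to 0.69) against -0.04 between different animals. The script was tested on simulated data. Intervals are 95%.

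All 8 members were named, and of each other list up to 4 called genes per comparison with the largest change, plus the 5 genes most like each member. The marker values given beside a member were chosen after they were seen, and 3 listed genes are not reported here. The members and lists were chosen with earlier results of these data known. The alternatives tried left out the replicate block, fitted only the tissues compared, scaled the libraries by TMM or median of ratios, used no filter or one at 5 TPM, used a pseudocount of 0.1 TPM, left out each animal, or left out 1 of 3 sets of gland sections, 2 of which were added after seeing the data. The rest was computed in Python 3.11.15 (numpy 2.4.6, pandas 2.3.3) and drawn with matplotlib 3.10.9.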

Additional observations from a re-analysis of the deposited data

Results flagged for a closer look

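In 7 of 40 groups of 5 libraries, 1 library lay far from the other 4 by Dixon's gap test at the 95% level. For normally distributed values that test flags about 1 in 20 groups by chance. It was run on untransformed TPM, and the groups share libraries, so that rate need not hold here. Sublingual gland of baboon 5 was high in SOX10 (56.8 TPM, next 15.2 TPM), TLX1 (15.7 TPM, next 1.53 TPM) and ELF5 (53.9 TPM, next 12.7 TPM), and this library also held the most AQP5 (226 TPM) and EPCAM (170 TPM) of the 15 gland libraries. Submandibular gland of baboon 2 was low in TLX1 (0.266 TPM, next 6.01 TPM), with KRT8 at 8.77 TPM and KRT18 at 7.19 TPM. Parotid of baboon 5, the section rich in CD79A, was high in TLX1 (0.319 TPM, next 0.122 TPM), although this is still below 1 TPM. Liver of baboon 5, the male animal, was high in SOX10 (1.94 TPM, next 1.15 TPM) and SOX9 (1.54 TPM, next 0.876 TPM). The part of section makeup or sex in these values was not tested.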

How the results depend on the processing

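Of 56 single-gene differences under up to 15 alternatives (TLX1 in parotid was too low to be tested with only the tissues compared), 672 values kept their side of the threshold, 87 passed it newly, 68 no longer passed it and 11 changed sign. PITX1 in sublingual gland (both organs) and submandibular gland (liver), FOXC1 in parotid and submandibular gland (liver), TLX1 in submandibular gland (liver) and EHF in sublingual gland (liver) stayed called under all 15. The count of members called changed as follows. Without the replicate block it was 0 in parotid and 2 in sublingual gland against pancreas, and 4 in submandibular gland against liver, as it also was there without a filter. With only the tissues compared it was 4 in parotid and 1 in sublingual gland against pancreas, and 5 in parotid against liver. TMM and median-of-ratios scaling each gave 0 in parotid and 2 in sublingual gland against pancreas, and 5 in parotid against liver, with 3 in submandibular gland against pancreas and 7 against liver. The shares of all genes called higher were, in the same order, 2.69%, 4.18%, 7.54%, 2.93% and 7.8% under TMM scaling. Under median-of-ratios scaling they were 2.41%, 4.38%, 7.04%, 2.88% and 7.88%. Without a filter the member counts were 0 in parotid and 2 in sublingual gland against pancreas, and 1 in parotid against liver. A pseudocount of 0.1 TPM gave 3 in parotid against pancreas and 4 against liver. Without the 4 fat-, lymphoid- or muscle-rich sections (parotid of baboons 2 and 5, submandibular gland of baboon 5, sublingual gland of baboon 2) parotid had 4 against pancreas and 6 against liver, and sublingual gland had 1 against parotid and 2 against submandibular gland. Of all genes, 1.52% and 2.91% were then called higher in parotid than in pancreas and liver. As many as 20.9% were called higher in sublingual gland than in parotid. Without the 4 low-KRT8 libraries the counts were 4 and 6 in parotid, 7 and 8 in sublingual gland, 3 between sublingual gland and parotid and 4 between sublingual and submandibular gland. The shares of all genes called higher in that set are given above, and those called lower were not counted. Without sublingual gland of baboons 1 and 4 they were 3 in parotid and 2 in sublingual gland against pancreas. Leaving out 1 animal at a time gave 0 to 3 (parotid), 0 to 5 (submandibular) and 1 to 6 (sublingual) against pancreas, 1 to 6, 3 to 7 and 3 to 6 against liver, 0 to 1 between submandibular gland and parotid, 0 to 2 between sublingual and submandibular gland, and 0 to 1 between pancreas and liver. Where no share of all genes is given with a member count, at most the ranges at the end of this section are given. Those member counts thus have no matched background and describe the members alone. Signs changed only for uncalled values: SOX9 in sublingual gland against pancreas (-0.57 under both scalings, -0.32 to 0.51 without 1 animal), SOX9 in parotid against pancreas (0.19 without the fat-, lymphoid- or muscle-rich sections, 0.22 without the low-KRT8 libraries), HOPX in submandibular gland against liver (-0.0464 without the fat-, lymphoid- or muscle-rich sections, -0.0487 to 0.75 without 1 animal), and TLX1 in parotid against pancreas (0.10) and liver (0.0602) without the low-KRT8 libraries. The number of all genes called higher in sublingual gland than in pancreas ran from 139 to 4756 around 1045. Against pancreas it ran from 36 to 404 around 212 in parotid and from 50 to 439 around 190 in submandibular gland. Against liver it ran from 127 to 1130 around 425 in parotid and from 182 to 1181 around 391 in submandibular gland. In sublingual gland it ran from 311 to 2353 around 889 against liver. Against parotid it ran there from 0 to 4918 around 14, and against submandibular gland from 0 to 4934 around 7. The causes of these changes were not tested, and read depth, which TPM does not hold, could not be weighed.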
